A study of Mus musculus with 12 samples.

Results

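Transforming growth factor beta (TGF-beta) signalling was described through 9 genes chosen by name: the ligand genes Tgfb1, Tgfb2 and Tgfb3, the receptor genes Tgfbr1 and Tgfbr2, the latency and activation genes Ltbp1, Ltbp2 and Thbs1, and the target gene Tgfbi. All 9 were above 0 in every library, out of 18509 genes above 0 in at least 1 library and 24340 rows in the table. TGF-beta ligands are secreted in a latent complex, held in the matrix by latent binding proteins, and become active when proteases, integrins or thrombospondin release them. The active ligand joins a type II and a type I receptor, which phosphorylate SMAD proteins that enter the nucleus and switch target genes on or off. In the retina and optic nerve head, TGF-beta is known for its part in matrix deposition, in the state of glia and microglia, and in the outflow tissues that set eye pressure.

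Both retinas of 6 mice of the p16-3MR strain, aged 12 to 16 weeks, were sequenced from poly(A) RNA on day 3 after intraocular pressure (IOP) had been raised in 1 eye. The pressure was held at 85 to 90 mm Hg for 60 minutes by infusing saline into the anterior chamber under ketamine and xylazine anaesthesia, and the opposite eye of the same mouse was the control. Mice 3, 4 and 6 received PBS as a sham (groups "control" and "IOP"), and mice 1, 2 and 5 received ganciclovir (GCV) at 25 mg/kg once a day by intraperitoneal injection (groups "control GCV" and "IOP GCV"). Each of the 4 groups therefore held 3 retinas. All 6 mice carried the transgene, which places a fusion of luciferase, red fluorescent protein and a viral thymidine kinase under regulatory sequence of p16. GCV is made toxic by that kinase in cells that express it, so the model reaches only cells in which this p16 sequence is active. No mouse without the transgene was in the series, and the control eye shared the anaesthesia, the injections and the circulation of its treated partner.

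Values are FPKM, fragments scaled to transcript length and to the size of the library, and tests were made with limma on log2(FPKM + 1), so that differences of low genes are understated. A gene was counted as changed where its p, adjusted by the Benjamini-Hochberg method over all 18509 genes, was under 0.05. The low values pointed to 3970000 to 9090000 fragments per library, with IOP mouse 6 the shallowest at 14844 genes above 0 against 16044 to 16593 in the others. The summed markers of retinal ganglion cells lay between 876 and 1767 FPKM in the 6 control retinas and between 210 and 962 FPKM in the 6 IOP retinas, where IOP mouse 4 held the 962. Lens markers ranged from 6.65 to 7246 FPKM in control retinas and from 102 to 6510 FPKM in IOP retinas, with the 7246 in control GCV mouse 1 and no more than 130.0 in the other 5 control retinas. They were higher in the IOP retina in 5 of 6 mice, by 3.94 to 7.14 as the log2 ratio of summed FPKM between eyes, and lower by 0.15 in mouse 1. The rod markers summed to 29116 to 53867 FPKM in all 12 libraries, as in retinal tissue. Calls of the 9 genes that changed without 1 library are given with and without it.

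The sequences just upstream of Tgfbi, Tgfb1 and Tgfbr2 are shown because these genes rose in the IOP retinas and SMAD proteins bind DNA. Each is the 250 bases before the annotated RefSeq start in GRCm38.p6, on the strand of the gene, with capitals marking the SMAD-binding letters CAGAC or their reverse complement GTCTG. The Tgfbi window lies at chr13:56609336-56609585 on the plus strand, the Tgfb1 window at chr7:25686752-25687001 on the plus strand and the Tgfbr2 window at chr9:116175364-116175613 on the minus strand.
Tgfbi: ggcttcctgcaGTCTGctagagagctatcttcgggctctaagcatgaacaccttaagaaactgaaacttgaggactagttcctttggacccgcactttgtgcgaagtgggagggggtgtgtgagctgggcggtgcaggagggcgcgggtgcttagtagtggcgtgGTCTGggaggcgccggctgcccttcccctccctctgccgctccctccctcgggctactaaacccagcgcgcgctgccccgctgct
Tgfb1: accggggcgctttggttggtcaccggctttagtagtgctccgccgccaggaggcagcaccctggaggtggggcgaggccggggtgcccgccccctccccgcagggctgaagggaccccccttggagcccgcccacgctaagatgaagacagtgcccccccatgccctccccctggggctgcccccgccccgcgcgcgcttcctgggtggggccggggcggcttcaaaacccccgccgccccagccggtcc
Tgfbr2: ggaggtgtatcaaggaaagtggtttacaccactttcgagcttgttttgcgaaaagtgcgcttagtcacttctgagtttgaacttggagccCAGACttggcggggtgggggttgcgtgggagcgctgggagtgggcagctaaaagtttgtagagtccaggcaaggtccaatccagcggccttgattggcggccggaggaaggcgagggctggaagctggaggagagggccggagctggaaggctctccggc
The Tgfbi window held the letters 2 times, the Tgfbr2 window held them 1 time and the Tgfb1 window did not hold them. Of 32851 windows of the same length before RefSeq starts, 42.2% held CAGAC on either strand. The AP-1 letters TGANTCA, also searched on both strands, were in none of the 3 windows and in 6.75% of all windows.

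Of the 9 genes, 4 were higher in the IOP retinas when mice without and with GCV were averaged, namely Tgfbi, Tgfb1, Tgfbr2 and Thbs1. This compares with 12.2% of all genes changed in that comparison, 6.76% higher and 5.44% lower. The 9 genes were chosen with earlier results of these data known, so such shares describe them and do not test them as a set. None of the 9 was called lower. By unadjusted p under 0.05 the count was 6 of 9, against 30.3% of all genes. In 3 of the 9, Tgfb1, Tgfbi and Thbs1, all 6 IOP retinas lay above all 6 control retinas, against 5.47% of all genes, and in none did all 6 lie below, against 2.44%. In 6 of the 9, the IOP retina was the higher of the pair in each of 6 mice, against 10.7% of all genes. All these shares are over 18509 genes, of which 12910 had a mean of at least 1 FPKM. Genes near 0 are harder to call or separate, and no share over expressed genes alone is given. The plot of both eyes of each mouse shows the patterns of the 9 genes.

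**Figure D1:**
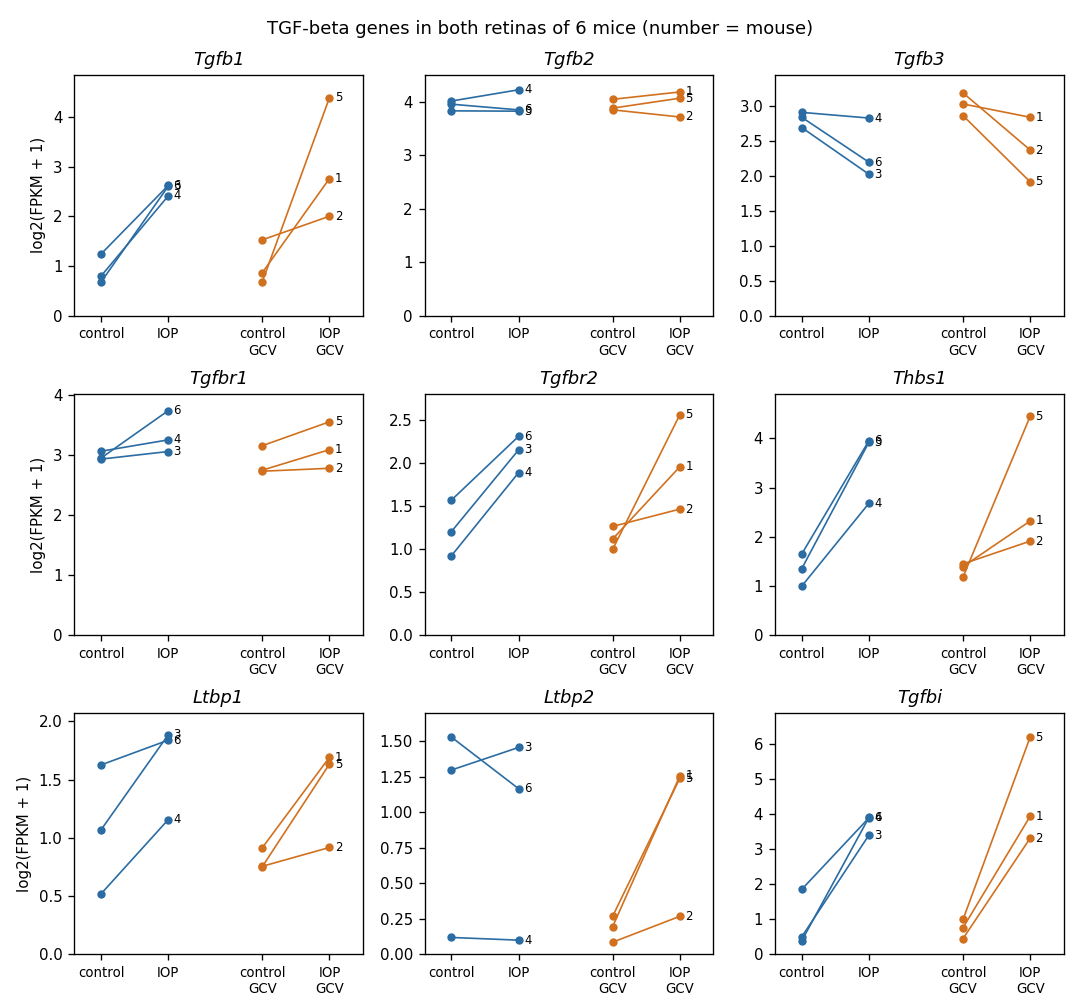
Level of each gene as log2(FPKM + 1) in the 12 libraries, with a line joining the control and the IOP retina of a mouse, mice without GCV in blue and mice with GCV in orange, and the mouse number beside the IOP retina. Tgfb1, Tgfbi and Thbs1 lines rise in every mouse, Tgfb2 lines are nearly level, and Tgfb3 lines fall to different depths.

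The ligand genes differed in level and in what the IOP retinas showed. Tgfb1 encodes the ligand that platelets, macrophages and microglia make in quantity. It was low in the control retinas, at 0.601, 0.740 and 1.37 FPKM in mice 3, 4 and 6 and at 0.824, 1.89 and 0.604 FPKM in mice 1, 2 and 5 with GCV. The IOP retinas of mice 3, 4 and 6 held 5.09, 4.33 and 5.16 FPKM, and those of mice 1, 2 and 5 held 5.79, 3.01 and 20.0 FPKM. The lowest IOP value, in mouse 2, lay above the highest control value, which came from the other eye of the same mouse. Averaged over mice without and with GCV, the difference was 1.83 ± 0.35 (SE) on the log2(FPKM + 1) scale, with a limma adjusted p of 0.0118, and the gene stayed called when any 1 library was left out. Tgfb1 lies at chr7:25687002-25705077 in GRCm38.p6 and has 1 curated RefSeq transcript, and its values stand for about 8.3 to 350 fragments per library.

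Tgfb2 encodes the ligand most abundant in the neural retina and in aqueous humour, and it had the highest mean of the 9 genes in the control retinas. The control retinas held 13.2, 15.1 and 14.5 FPKM in mice 3, 4 and 6, and 15.5, 13.4 and 13.7 FPKM in mice 1, 2 and 5. Their IOP partners held 13.1, 17.6 and 13.4 FPKM, and 17.1, 12.1 and 15.7 FPKM. The groups overlapped over most of their range, and the mean was 14.2 ± 0.948 FPKM in control and 14.9 ± 2.29 FPKM in IOP retinas (SD, n = 6 each). The fitted difference was 0.05 ± 0.10 (SE), with a limma adjusted p of 0.793.

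Tgfb3, which encodes the remaining ligand, was the only member with a negative difference in all 6 mice. The control retinas of mice 3, 4 and 6 held 5.43, 6.48 and 6.12 FPKM and those of mice 1, 2 and 5 held 7.13, 8.07 and 6.24 FPKM. The IOP retinas held 3.05, 6.07 and 3.57 FPKM in mice 3, 4 and 6 and 6.12, 4.15 and 2.76 FPKM in mice 1, 2 and 5. Mice 4 and 1 kept IOP values inside the control range, while the other 4 IOP retinas lay below it. The fitted difference of -0.56 ± 0.18 (SE) missed the threshold, with a limma adjusted p of 0.0708. It passed without IOP mouse 4 (difference -0.68, adjusted p 0.0172) and without IOP GCV mouse 1 (difference -0.67, adjusted p 0.0406), and also when genes were filtered to 1 FPKM in at least 3 libraries (adjusted p 0.0474). Those mice also had the smallest deficit of retinal ganglion cell markers, at -0.05 in mouse 4 and -0.65 in mouse 1 as the log2 ratio of summed FPKM between eyes, against -1.45 to -2.06 in the others, and the part of these markers in the result was not tested. In bulk tissue, fewer cells of a type and less RNA per cell cannot be told apart.

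The make-up of the 3 ligands shifted between the eyes. Tgfb1 made up 2.94% to 8.08% of their summed FPKM in the 6 control retinas and 15.4% to 52.0% in the 6 IOP retinas. Tgfb3 made up 30.1% ± 2.44 in control and 17.0% ± 5.72 in IOP retinas (SD, n = 6 each), with ranges of 27.9% to 34.6% and 7.17% to 21.6% that did not overlap. Tgfb2 remained the largest share in 5 of the 6 IOP retinas, the exception being IOP GCV mouse 5, where it made up 40.9%. The summed level of the 3 genes was 19.2 to 23.4 FPKM in control and 19.3 to 38.5 FPKM in IOP retinas. No test was run on the shares, which follow from the values tested above.

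**Figure D2:**
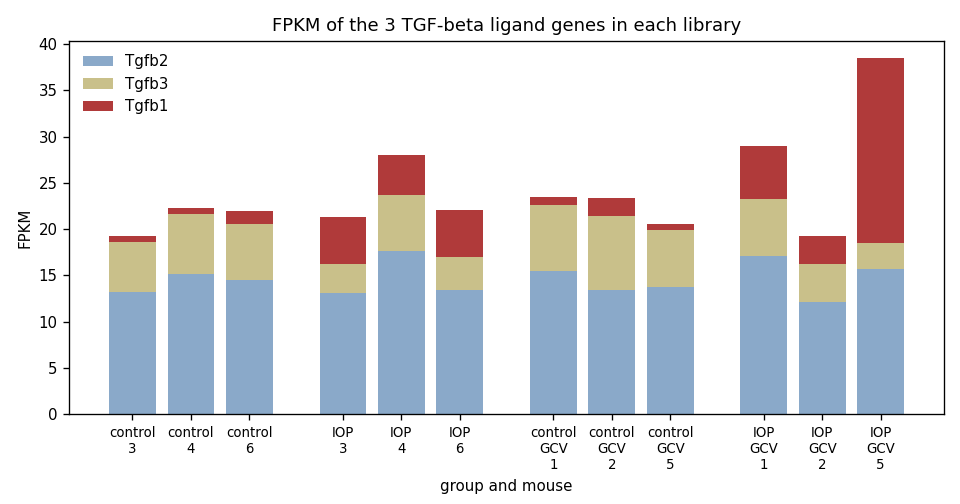
Stacked FPKM of Tgfb2, Tgfb3 and Tgfb1 in each library, by group and mouse, on an axis starting at 0. The red Tgfb1 part is thin in the 6 control retinas and reaches 20.0 FPKM in IOP GCV mouse 5, while the Tgfb2 part stays between 12.1 and 17.6 FPKM in all 12.

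Both receptor genes were measured, and the type II receptor was the one that passed the test. Tgfbr2 encodes the receptor that binds the ligand first. It was at 1.30, 0.893 and 1.97 FPKM in the control retinas of mice 3, 4 and 6 and at 1.17, 1.40 and 0.993 FPKM in those of mice 1, 2 and 5. The IOP retinas held 3.44, 2.70 and 3.96 FPKM and, with GCV, 2.88, 1.76 and 4.90 FPKM. Only IOP GCV mouse 2, at 1.76 FPKM, reached into the control range. The gene rose by 0.88 ± 0.19 (SE), with a limma adjusted p of 0.0206. The call was lost without control mouse 3 (difference 0.87, adjusted p 0.0552), control mouse 4 (0.80, 0.0627) or control GCV mouse 5 (0.85, 0.0584). It stood in the other 9 fits that left out 1 library.

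Tgfbr1 encodes the type I receptor kinase. Its control values were 6.64, 7.36 and 6.73 FPKM in mice 3, 4 and 6 and 5.72, 5.64 and 7.91 FPKM in mice 1, 2 and 5. The IOP values were 7.34, 8.54 and 12.4 FPKM, and 7.52, 5.87 and 10.8 FPKM. The IOP retina was the higher in all 6 mice, by 0.05 to 0.79 on the log2 scale, but the groups overlapped and the fitted 0.32 ± 0.16 (SE) did not pass, with a limma adjusted p of 0.222. The highest value came from IOP mouse 6, the shallowest library.

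Among the latency and activation genes, Thbs1 stood out. It encodes thrombospondin 1, a matrix glycoprotein that can release TGF-beta from its latent complex. In the control retinas it lay between 0.993 and 2.13 FPKM, with 1.55, 0.993 and 2.13 in mice 3, 4 and 6 and 1.62, 1.73 and 1.27 in mice 1, 2 and 5. The IOP retinas of mice 3, 4 and 6 held 14.2, 5.41 and 14.5 FPKM, and those of mice 1, 2 and 5 held 3.99, 2.76 and 20.9 FPKM. No IOP value fell into the control range, although mice 1 and 2 came near to it. The gene rose by 1.87 ± 0.41 (SE), with a limma adjusted p of 0.0210. The call was lost without control mouse 3 (difference 1.88, adjusted p 0.0550), control mouse 4 (1.79, 0.0659) or IOP mouse 3 (1.77, 0.0552). It was also lost without control GCV mouse 2 (1.90, 0.0537) or control GCV mouse 5 (1.83, 0.0584), and stood in the other 7 fits.

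Ltbp1 and Ltbp2 encode large fibril-associated proteins. LTBP1 ties the latent ligand to the matrix, whereas LTBP2 does not bind it and is known from the ciliary zonule. Ltbp1 was at 1.10, 0.432 and 2.09 FPKM in the control retinas of mice 3, 4 and 6 and at 0.884, 0.687 and 0.683 FPKM in mice 1, 2 and 5. The IOP partners held 2.69, 1.23 and 2.58 FPKM, and 2.23, 0.888 and 2.10 FPKM. The IOP retina was higher in each mouse, by 0.16 to 0.88, but the groups overlapped. The fitted 0.58 ± 0.22 (SE) did not pass (limma adjusted p 0.104) and passed only without IOP mouse 4 (difference 0.70, adjusted p 0.0434).

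Ltbp2 did not follow the eye in the mice without GCV. It was at 1.46, 0.0852 and 1.89 FPKM in the control retinas of mice 3, 4 and 6, and at 1.74, 0.0710 and 1.24 FPKM in their IOP partners. With GCV the control retinas held 0.144, 0.0605 and 0.204 FPKM and the IOP retinas of mice 1, 2 and 5 held 1.39, 0.203 and 1.36 FPKM. Values over 1 FPKM came from both eyes of mice 3 and 6 and from the IOP eyes of mice 1 and 5. The lowest stand for about 3 fragments, and the fitted 0.33 ± 0.31 (SE) did not pass (limma adjusted p 0.510). The markers of ciliary body, iris and cornea are given below as a list, and the part of such tissue in the Ltbp2 values was not tested.

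Tgfbi encodes a secreted matrix protein, named for its induction by TGF-beta and abundant in the cornea. It had the largest difference of the 9 genes. The control retinas of mice 3, 4 and 6 held 0.410, 0.306 and 2.60 FPKM and those of mice 1, 2 and 5 held 0.686, 0.362 and 0.985 FPKM. The IOP retinas held 9.53, 13.9 and 13.8 FPKM without GCV and 14.3, 8.90 and 72.0 FPKM with GCV. The lowest IOP value, 8.90 FPKM, was well above the highest control value, 2.60 FPKM, and IOP GCV mouse 5 stood far above the rest. The gene rose by 3.28 ± 0.46 (SE), with a limma adjusted p of 0.00231, and stayed called when any 1 library was left out. Tgfbi lies at chr13:56609586-56639359 in GRCm38.p6 with 2 curated transcripts, and its values stand for about 7.1 to 1600 fragments.

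**Figure D3:**
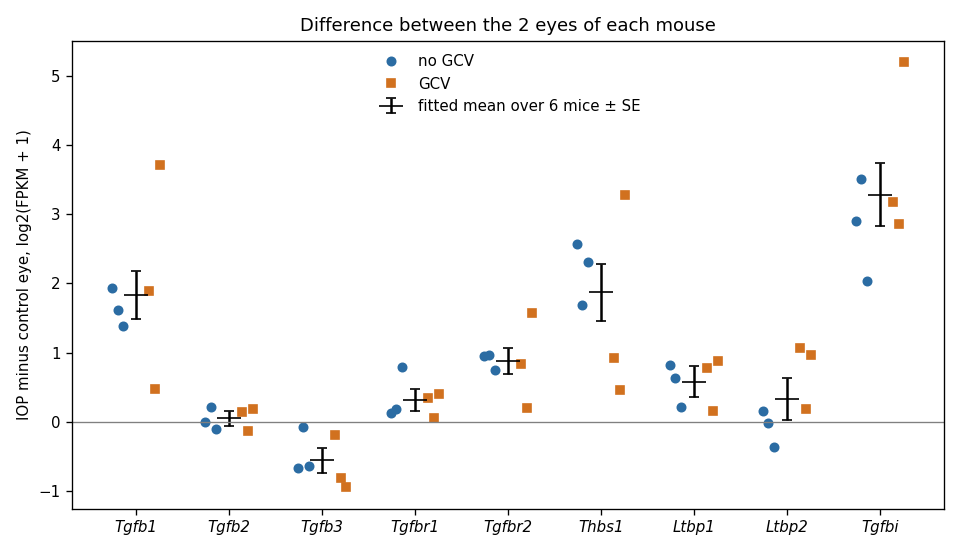
Difference between the IOP and the control retina of each mouse on the log2(FPKM + 1) scale, with circles for mice without GCV, squares for mice with GCV, and a black bar for the fitted mean over 6 mice with its standard error. That standard error comes from the fit without pairing of the eyes. Tgfbi spans 2.04 to 5.20 and Tgfb1 0.48 to 3.71, with mouse 5 highest in both, while Tgfb2 stays within -0.13 to 0.21.

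In GRCm38.p6, Tgfbr2 lies at chr9:116087695-116175363, Thbs1 at chr2:118111876-118127133 and Tgfb3 at chr12:86056743-86079041. Tgfb2 (chr1:186622787-186709697), Tgfbr1 (chr4:47353222-47414926), Ltbp1 (chr17:75005480-75392512), Ltbp2 (chr12:84783212-84876558) and Tgfbr2 overlap other RefSeq genes, and whether the counting used strand is not given in the sources used here, so reads of the partners may be included.

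Compared per length in the 6 control retinas, the order of mean levels was Tgfb2, Tgfbr1, Tgfb3, Thbs1, Tgfbr2, Tgfb1, Ltbp1, Tgfbi and Ltbp2. Tgfbr1 at 6.67 ± 0.895 FPKM and Tgfb3 at 6.58 ± 0.912 FPKM did not differ beyond their spread, nor did any neighbours from Thbs1 at 1.55 ± 0.392 FPKM down to Ltbp2 at 0.639 ± 0.812 FPKM (SD, n = 6 each). In the 6 IOP retinas Tgfbi had the highest mean, 22.1 ± 24.6 FPKM, which rested on the 72.0 of mouse 5. Thbs1 stood at 10.3 ± 7.29 FPKM there, with values on both sides of the Tgfbr1 range of 5.87 to 12.4 FPKM. The Tgfb1 mean of 7.23 ± 6.32 FPKM rested on the 20.0 of mouse 5, and the other 5 values, 3.01 to 5.79 FPKM, lay below that range.

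Taken separately, mice without and with GCV gave fewer calls. Without GCV none of the 9 passed, against 1.65% of all genes, although 4 (Tgfb1, Tgfbi, Tgfbr2 and Thbs1) had an unadjusted limma p under 0.05, as 18.9% of all genes did. The differences were 2.82 ± 0.65 (SE) for Tgfbi (adjusted p 0.0638), 2.19 ± 0.58 for Thbs1 (0.105), 1.64 ± 0.50 for Tgfb1 (0.151) and 0.89 ± 0.27 for Tgfbr2 (0.155). Without IOP mouse 4, Tgfbi (2.73, adjusted p 0.0476) and Thbs1 (2.61, adjusted p 0.0281) passed. With GCV 1 of the 9 passed, against 1.8% of all genes: Tgfbi rose by 3.75 ± 0.65 (SE), with an adjusted p of 0.0177. That call was lost without control GCV mouse 1 (difference 3.76, adjusted p 0.0838), mouse 2 (3.61, 0.0987) or mouse 5 (3.88, 0.0751). Tgfb1 at 2.03 ± 0.50 (0.0710), Tgfbr2 at 0.87 ± 0.27 (0.136) and Thbs1 at 1.55 ± 0.58 (0.186) did not pass with GCV. Without IOP GCV mouse 5 these differences were 1.36, 0.59 and 0.78. By unadjusted p under 0.05, 5 of the 9 passed with GCV, as 19.2% of all genes did. Without IOP GCV mouse 2, Tgfb1 (2.55, adjusted p 0.0153) and Tgfbr2 (1.13, adjusted p 0.0431) did.

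Whether GCV altered the difference between the eyes was asked by the interaction, the effect with GCV minus the effect without. None of the 9 passed, as for 0% of all genes, and 0 of the 9 had an unadjusted limma p under 0.05 against 1.93% of all genes. The interaction was 0.93 for Tgfbi (95% interval -1.10 to 2.96), 0.39 for Tgfb1 (-1.17 to 1.94), -0.02 for Tgfbr2 (-0.87 to 0.84) and -0.63 for Thbs1 (-2.46 to 1.20). When 1 library was left out, the Tgfbi interaction ranged from 0.074 without IOP GCV mouse 5 to 1.51 without IOP GCV mouse 2, and that of Thbs1 from -1.41 to -0.14 without the same libraries. These intervals span differences in both directions, so the comparison does not show that the effects were alike. In Tgfb1, Tgfbi, Tgfbr2 and Thbs1 the mice with GCV were the more varied. Mouse 5 had the largest differences in these genes, at 3.71, 5.20, 1.57 and 3.27, and mouse 2 the smallest in Tgfb1, Tgfbr2 and Thbs1, at 0.48, 0.20 and 0.46. In Tgfbr1 the mice without GCV were the more varied, with an SD of 0.37 against 0.19. Between IOP retinas with and without GCV none of the 9 passed, as for 0% of all genes, while an unadjusted p under 0.05 was reached by 0 of them, against 4.18% of all genes. Between control retinas with and without GCV the counts were again 0 of 9 by adjusted p, beside 0% of all genes, and 0 of 9 by unadjusted p, beside 1.59%.

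A further 108 genes of the pathway, in 8 lists, were read alongside. These lists too were chosen with earlier results of these data known. Averaged over mice without and with GCV, 18 were higher and 3 lower in the IOP retinas, beside the 6.76% and 5.44% of all genes given above, and the median difference was 0.27 against 0.01 over all genes. With the mouse as a block, 12 were higher and 2 lower. The count of 21 became 30 without IOP mouse 4. It became 9 without control mouse 4, control GCV mouse 2 or control GCV mouse 5, 10 without control mouse 3, 12 without control mouse 6 or IOP mouse 3, and 13 without control GCV mouse 1. Junb, Fcrls, Timp1, Cdkn1a, Htra1, Id1, Cx3cr1 and Siglech stayed called in all 12 fits that left out 1 library, Cyr61 did in 9, Olfml3 in 8 and Bmp1 in 7. Itgb5 and Klf10 stayed called in 4 of these fits, Tgif1 and Fn1 in 3, Smad5, Smad9 and Vegfa in 2, and Furin and P2ry13 in 1, with limma adjusted p up to 0.117 in the others. Without GCV 3 of the 108 passed, beside 1.65% of all genes, Fcrls (2.05, limma adjusted p 0.0181), Junb (1.84, 0.0253) and Timp1 (2.96, 0.0358), and 0 passed with the mouse as a block. That count was 14 without IOP mouse 4, 1 without control mouse 6, and 0 without control mouse 3, control mouse 4 or IOP mouse 3. With GCV the same 3 genes passed, beside 1.8% of all genes, Fcrls (1.90, adjusted p 0.0194), Junb (2.29, 0.00852) and Timp1 (3.89, 0.0109), and 2 passed with the block. That count was 11 without IOP GCV mouse 2, 2 without control GCV mouse 5 or IOP GCV mouse 5, and 1 without control GCV mouse 1 or mouse 2.

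**Figure D4:**
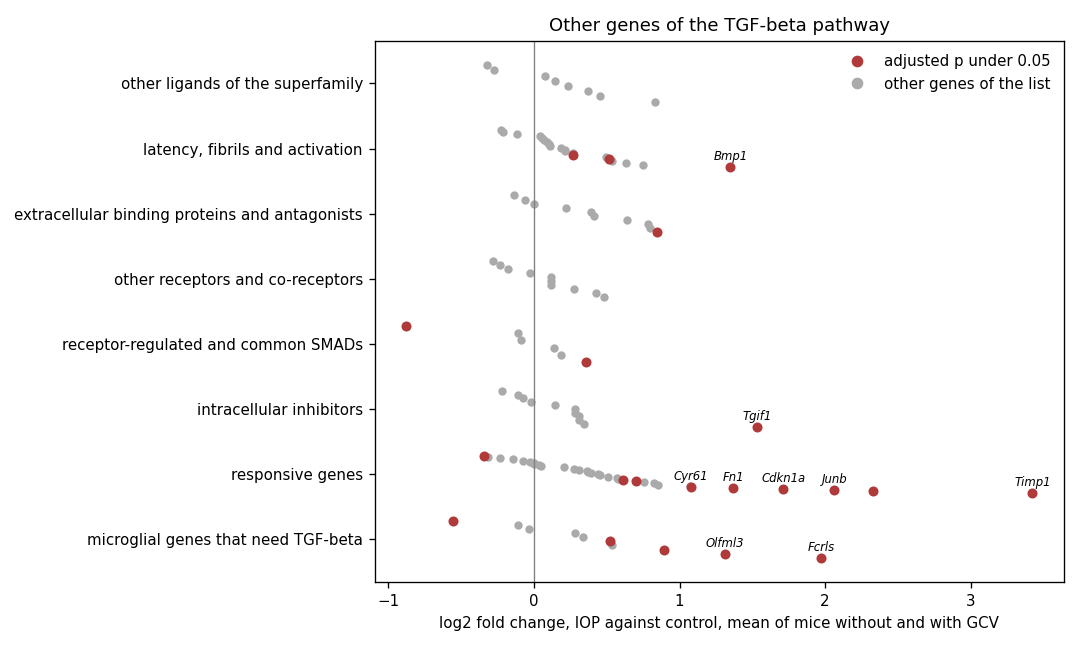
Difference between IOP and control retinas on the log2(FPKM + 1) scale for 108 further pathway genes in 8 lists, averaged over mice without and with GCV, with red points for an adjusted p under 0.05. The responsive genes reach furthest right, with Timp1 at 3.43, and red points left of 0 mark Smad9, Siglech and Vegfa.

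Responsive genes, which TGF-beta is known to induce or repress in at least some cell types, had 8 of 33 higher and 1 lower, with a median of 0.44, beside 6.76% of all genes higher and 5.44% lower. Whether TGF-beta drove these differences was not tested. Junb, an AP-1 subunit gene, was at 4.59 to 8.26 FPKM in the control retinas and at 19.3 FPKM or more in the IOP retinas, a difference of 2.06 ± 0.23 (SE) with a limma adjusted p of 0.000833. Timp1, an inhibitor of matrix metalloproteinases, rose by 3.43 ± 0.41 (adjusted p 0.00107). Cdkn1a, which encodes the cell cycle inhibitor p21, rose by 1.71 (adjusted p 0.00604), the matrix-linked Cyr61 by 1.08 (0.0184), and the transcription regulator Id1, which BMP signals also induce, by 0.61 (0.0122). Klf10, given below, and the fibronectin gene Fn1, by 1.37 (0.0476), also rose, and Vegfa, an endothelial growth factor gene, fell by 0.35 (0.0484). Fn1 and Vegfa were named after their values were seen. The list's most abundant genes, Tsc22d1 at a mean of 155 FPKM and the matrix gene Sparc at 114 FPKM, differed by -0.03 and -0.07 and did not pass.

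Genes for latency, fibrils and activation had 3 of 20 higher and none lower, and the extracellular binding proteins 1 of 10, both near the 12.2% of all genes called. Bmp1, a protease that cuts LTBP1, rose by 1.35 (limma adjusted p 0.0205), the integrin subunit gene Itgb5 by 0.52 (0.0379) and Furin, whose protease processes the ligand precursor, by 0.27 (0.0480). With the mouse as a block, Itgb5 (0.0680) and Furin (0.127) did not pass. Itgb1, the most abundant of the list at 18.9 FPKM, differed by 0.64 (0.0754). The binding protein list's 1 call was the protease gene Htra1, which rose by 0.85 ± 0.15 (SE, adjusted p 0.00868) from 30.4 to 37.7 FPKM in control retinas to 43.9 to 80.7 FPKM. Dcn, which encodes a proteoglycan that binds TGF-beta, stood at 10.3 FPKM with a difference of 0.41 (0.721), which rested on 63.9 FPKM in IOP mouse 3 and was -0.19 without it.

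The remaining lists, read beside 12.2% of all genes called, hold the other ligands and receptors and the genes of the signal inside the cell. None of 8 other ligands passed, the most abundant being Gdf11 at 3.65 FPKM (difference -0.27, limma adjusted p 0.288) and Bmp7 at 3.61 FPKM (0.08, adjusted p 0.902). None of 10 other receptors passed, with Bmpr1a at 37.4 FPKM (0.12, adjusted p 0.370) and Acvr1b at 19.2 FPKM (-0.28, adjusted p 0.0791). Of 6 SMAD genes, Smad5 rose by 0.35 (0.0401) and Smad9 fell by 0.88 (0.0471), both BMP-linked, while Smad4, the common partner, differed by 0.19 (0.467). Smad4 stood at 40.6 FPKM in IOP mouse 6, the shallowest library, and at 16.6 to 23.1 FPKM in the other IOP retinas. Beyond Smad5 and Smad9 no gene of that list passed, Smad2 and Smad3 included. Of 11 intracellular inhibitors, the SMAD corepressor gene Tgif1 rose by 1.53 (0.0387), and the phosphatase gene Ppm1a at 66.9 FPKM (-0.11, adjusted p 0.374) and the ligase gene Smurf2 at 16.2 FPKM (0.28, adjusted p 0.0635) did not pass. Smad7 and Pmepa1, also in that list, did not pass. With the mouse as a block Smad5 (0.0699), Smad9 (0.0840) and Tgif1 (0.0604) did not pass either.

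Microglial genes known to need TGF-beta in the brain had 4 of 10 higher and 1 lower, beside 6.76% and 5.44% of all genes. Fcrls rose by 1.97 (limma adjusted p 0.00106), Olfml3 by 1.31 (0.0192), the fractalkine receptor gene Cx3cr1 by 0.89 (0.0140) and P2ry13 by 0.52 (0.0487, and 0.0672 with the mouse as a block). Siglech, a lectin gene of resting microglia, fell by 0.56 (0.0145), with 0.848 to 1.10 FPKM in the control retinas and 0 to 0.614 FPKM in the IOP retinas.

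Markers of immune cells were higher in the IOP retinas of all 6 mice, as were Tgfb1, Tgfbr2, Thbs1 and Tgfbi. The 9 microglial markers summed to 91.7 to 148 FPKM in the control retinas and 394 to 1289 FPKM in the IOP retinas, and all 9 passed, 8 with the mouse as a block. The 10 markers of infiltrating monocytes and neutrophils summed to 9.58 to 48.5 FPKM and 182 to 2553 FPKM, 9 of 10 passed, 8 with the block, and Chil3 was listed at 0 in all 6 control retinas, as was Ly6c2 in the 3 control retinas with GCV. By mouse, the log2 ratio of this second sum between the eyes was 5.67, 3.88, 5.66, 5.12, 6.10 and 3.96 in mice 1 to 6. Mouse 5, the highest, and mouse 2, the lowest, also had the largest and the smallest differences in Tgfb1, Tgfbr2 and Thbs1. Tgfbi differed most in mouse 5 as well, but least in mouse 6, by 2.04, against 2.86 in mouse 2. The mice between mouse 5 and mouse 2 did not keep the order of the sum, since Thbs1 differed by 0.93 in mouse 1 and by 2.31 in mouse 6. Lyz2 made up much of that sum, with 124 to 2050 FPKM in the IOP retinas. Of the 9 lens markers all had a positive fitted difference, with a median of 4.03, and 5 passed, 6 with the mouse as a block, beside medians of 2.58 for the microglial and 2.82 for the infiltrating list. In none of the 9 did all 6 IOP retinas lie above the controls. The log2 ratio of the lens sum between the eyes was largest in mouse 4, at 7.14, and was -0.15 in mouse 1. The part of these cells and of lens tissue in the results was not tested. Endothelial markers summed to 27.9 to 44.4 FPKM in control and 18.0 to 60.1 FPKM in IOP retinas with 0 of 8 passing, fibroblast markers to 2.82 to 8.22 and 1.14 to 21.6 FPKM with 0 of 6, and ciliary body, iris and cornea markers to 11.0 to 61.4 and 17.9 to 136 FPKM with 0 of 8. With the mouse as a block 1 of these last 8 was higher, and their sum was higher in the IOP retina in 5 of 6 mice, by up to 2.76 as a log2 ratio in mouse 5. Mueller glia markers summed to 1306 to 1696 FPKM in control and 542 to 1149 FPKM in IOP retinas, with 2 of 8 lower, and 7 of the 8 retinal ganglion cell markers were lower. With the mouse as a block, 1 of each list was.

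**Figure D5:**
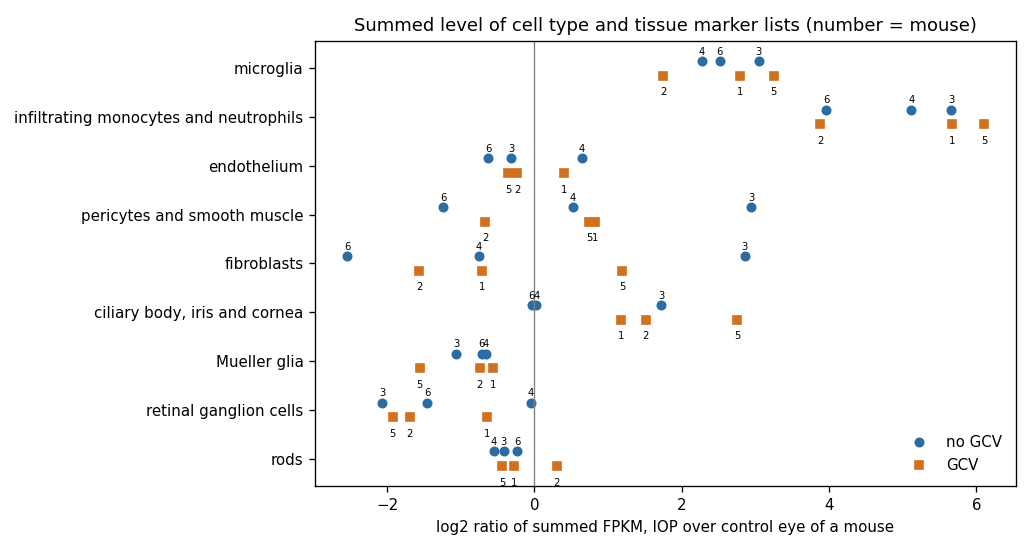
Log2 ratio of summed FPKM of 9 marker lists between the IOP and the control retina of each mouse, with circles for mice without GCV, squares for mice with GCV and the mouse number beside each. Both immune lists lie right of 0 in all 6 mice, with mouse 2 lowest in each, and the retinal ganglion cell list lies left of 0, by only 0.05 in mouse 4.

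Over the 12 libraries, the genes whose log2(FPKM + 1) followed each member most closely were listed among the 12910 whose mean reached 1 FPKM. The libraries share mice and the contrast between eyes, so the correlations are descriptions. Tgfb1 was closest to Sash3 (Pearson r 0.988), Selplg (0.987) and Actb (0.979), of which the first 2 are leukocyte genes. Tgfbi was closest to Cyth4 (0.989), Myof (0.985) and Ms4a6c (0.983), and Tgfbr2 to Wfdc17 (0.983), Slc15a3 (0.977) and Myh9 (0.974). Thbs1 followed Galns (0.973), Smpdl3a (0.973) and the responsive gene Klf10 (0.972), which itself rose by 0.70 (limma adjusted p 0.0404, and 0.0761 with the mouse as a block). Tgfb3 was closest to Glra2 (0.984), a glycine receptor gene, Tmem151b (0.980) and Mmp17 (0.979). Tgfbr1 followed Fndc3a (0.966), Slk (0.964) and Rock1 (0.955), Ltbp1 followed Angptl2 (0.971), Actn1 (0.955) and Laptm4a (0.948), and Ltbp2 followed Fbln1 (0.984) and Dio3 (0.968). For Tgfb2 the closest were Creb3l2 (0.806), Tfdp2 (0.787) and Klhl28 (0.786), the weakest likeness of the 9.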

How the data were processed

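Retinas of 6 mice gave 12 poly(A) libraries made with a stranded kit. The deposited table holds FPKM values computed by the authors. Its unit is not stated in the sources used here and was inferred from low values, which times transcript length are near multiples of 1 number per library (77.9% to 88.4% within 0.15 of a whole). The submitters' processing notes name TopHat2, Bowtie2, Cufflinks, Cuffdiff and mm10, and the study's methods name HOMER for counting. No counts were at hand, so no count test or interval was used.

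Limma 3.58.1 in R 4.3.3 was run on log2(FPKM + 1) with 4 group means and a variance trend, two-sided, on the 18509 genes above 0, after tests on simulated data. Tables were made in Python 3.11.15 and plots drawn by matplotlib 3.10.9. P-values measure the spread between the libraries of 3 mice per group, pooled over the 4 groups and moderated across genes. The main fit treats the 2 eyes of a mouse as independent. Eyes of the same mouse form pairs, and their deviations from group means correlated at -0.117 to 0.388, so fits with the mouse as a block were also made. Further alternatives were pseudocount, filter, scaling, the groups fitted, the threshold and leaving out each library. Members and lists were chosen with earlier results of these data known. Named were all members, the called genes of each pathway list (up to 6), its 2 most abundant, and the 3 genes most like each member, apart from a few genes that are not reported here. Loci and promoters are from RefSeq GRCm38.p6.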

Additional observations from a re-analysis of the deposited data

How the results depend on the processing

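With the mouse as a replicate block, the 4 members called over both treatments stayed called (block adjusted p 0.00818 for Tgfbi, 0.0458 for Tgfb1, 0.0470 for Tgfbr2, 0.0418 for Thbs1) and the block changed no other call of a member. Of the other pathway genes without GCV, the replicate block left 0 of 3. Members called without GCV were 1 in place of 0 with a pseudocount of 0.1, with a filter of 1 FPKM in 3 libraries, with only the groups compared, or at adjusted p under 0.1, and 4 at unadjusted p under 0.05. With GCV they were 2 in place of 1 with the pseudocount, the filter or the looser threshold, 0 with only the groups compared, and 5 unadjusted. For the pathway lists without GCV (3), the counts were 5, 5, 0, 6 and 29 under pseudocount, filter, groups compared, looser threshold and unadjusted p, and with GCV (3) they were 6, 8, 0, 10 and 32. Over both treatments (21) the looser threshold gave 38 and unadjusted p 45. Unadjusted p gave 2 pathway genes for the interaction, 7 between IOP retinas with and without GCV, and 2 between such control retinas. The shares of all genes there were 1.93%, 4.18% and 1.59%. Over both treatments 5 members passed in place of 4 with the filter or the looser threshold, Tgfb3 being the addition, and 6 unadjusted. Of all genes, unadjusted p gave 18.9% without GCV, 19.2% with GCV and 30.3% over both. Leaving out 1 library gave 0 to 2 members without GCV, 0 to 3 with GCV and 2 to 6 over both, and 0 to 14, 1 to 11 and 9 to 30 pathway genes.

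Without single libraries, differences that had not passed changed sign: Tgfb2 ranged from -0.10 to 0.10 without GCV, -0.034 to 0.20 with GCV and -0.017 to 0.12 over both, and Ltbp2 from -0.51 to 0.33 without GCV. In the interaction the ranges were -0.066 to 0.17 for Tgfb2, -0.28 to 0.91 for Tgfb1, -0.42 to 0.051 for Tgfb3, -0.31 to 0.089 for Tgfbr1, -0.30 to 0.25 for Tgfbr2 and -0.23 to 0.33 for Ltbp1, which quantile normalization put at -0.020. Over all genes, calls without GCV (306) ran from 20 to 2432 without 1 library and were 75 with the replicate block. With GCV (334) they ran from 62 to 697, with 144 under the block and 7 with only the groups compared. Over both (2258) they ran from 788 to 4499, with 1351 under the block. The cause was not tested.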
